A study of Mus musculus with 6 samples.

Results

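The genes for the proteins of the cytosolic ribosome were examined in mouse colon, as all symbols of the form Rpl, Rps or Rplp followed by a number and, for some, the letter a or x, with a mean of at least 10 counts over the 6 libraries. The rule gave 75 of the 24517 genes in the count tables, 46 of the large subunit and 29 of the small subunit. RNA was measured in colon tissue of 3 NSD2fl/fl and 3 NSD2∆IE libraries, which the labels list as separate samples without naming an animal. In NSD2fl/fl mice the floxed gene was left intact, and NSD2∆IE mice lacked NSD2, a histone H3 methyltransferase, in the intestinal epithelium, where the study's methods name Villin-Cre as the deleting line. Both groups were on a C57BL/6J background and were fed HFCD, a diet rich in fat and cholesterol. The labels give 16 weeks of it, a length that differs from the one in the study's methods. The ages at collection were not used here.

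The cytosolic ribosome reads messenger RNA and joins amino acids into protein. Its small subunit decodes the message, its large subunit holds the centre where peptide bonds form, and each ribosome carries nearly every ribosomal protein in a single copy, with the acidic stalk proteins as the main exception. The genes are among the most transcribed in dividing tissues such as the gut lining. Their messages mostly begin with a C and a run of pyrimidines (the 5′ terminal oligopyrimidine tract, 5′ TOP), through which the kinase mTOR and the RNA-binding protein LARP1 control their translation. That control acts after transcription and need not show in the amount of message.

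The start sites are shown because this feature is shared by members of both subunits and was not part of the rule. Of the 75 genes, 55 had a promoter in a RefSeq table of assembly GRCm38.p6, with 65 annotated starts in all. In 13 of these 65 (20%), the annotated first base was C followed by at least 4 bases that were C or T, against 823 of all 32851 promoters in the table (2.51%). A run of pyrimidines beginning a few bases beside the annotated start was not counted. The following 30-base stretches are written 5′ to 3′ on the strand of the gene, 15 bases before the annotated start and 15 from it on, with the run of pyrimidines from the start in capitals.
Rps27, chr3:90213634-90213663, minus strand: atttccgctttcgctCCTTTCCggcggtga
Rps21, chr2:180257364-180257393, plus strand: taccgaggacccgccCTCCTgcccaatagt
Rps6, chr4:86857353-86857382, minus strand: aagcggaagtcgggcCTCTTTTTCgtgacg
Rps18, chr17:33955651-33955680, minus strand: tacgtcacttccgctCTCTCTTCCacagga
Rps10, chr17:27635230-27635259, minus strand: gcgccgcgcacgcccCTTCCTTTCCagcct
Rpl35a, chr16:33056467-33056496, plus strand: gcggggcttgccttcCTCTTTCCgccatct
Rpl35, chr2:39005117-39005146, minus strand: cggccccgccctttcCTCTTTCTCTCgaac
Rpl15, chr14:18270972-18271001, minus strand: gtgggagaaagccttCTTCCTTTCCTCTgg
Rplp2, chr7:141447636-141447665, plus strand: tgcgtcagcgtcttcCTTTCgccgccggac
The run was 13 bases long in Rpl15, 11 in Rpl35, 10 in Rps10 and 5 in Rps21 and Rplp2. Over the whole 300-base windows and on either strand, CGGAAG, the core letters read by the ETS family, occurred in 61.5% of the member promoters and in 16.9% of all promoters. GGGCGG, the box of the SP1 family, occurred in 60% and 35.7%, and AAGATGG, the core of YY1, in 16.9% and 6.34%. TATAAA, the TATA box, occurred in 9.23% of the member promoters and in 13.6% of all promoters. These are matches of letters, and no binding was measured here.

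Library totals lay between 38041832 and 38604680 counts, and 16347 genes, all 75 members among them, passed the filter on low counts and were tested. The targeted gene, Nsd2, gave 1840, 2091 and 2455 counts in the floxed controls, against 972, 914 and 1139 in NSD2∆IE (log2 fold change -1.23, SE 0.159, adjusted p = 0.302 in edgeR's quasi-likelihood test). Xist had at most 4 counts in an NSD2fl/fl library and at least 21217 in an NSD2∆IE library, and 4 Y-linked genes summed to at least 5058 counts in the former and at most 1 in the latter, whereas the methods describe male littermates, so an effect of the genotype cannot be told apart from one of sex. All 12 epithelial markers were detected in every library, 11 of them with a log2 fold change below 0 (median -0.28). The groups did not overlap for 4 of the 12, with NSD2∆IE lower, against 7.28% of all genes tested. The threshold of the study was an unadjusted p under 0.05 and a log2 fold change beyond 0.322. Of the 12, 1, Elf3, passed it as lower, against 2.21% of all genes. The summed level of the 12 was 14198 to 23186 CPM (counts put on a common library size by TMM factors) in NSD2fl/fl and 13610 to 15400 CPM in NSD2∆IE. The summed level of 10 smooth muscle markers was 1680 to 4428 CPM in NSD2fl/fl and 5527 to 11888 CPM in NSD2∆IE, and that of 10 enteric neuron and glia markers was 56.5 to 94.01 and 119 to 161 CPM. All 7 adipocyte markers tested had a log2 fold change above 0. The summed level of the 8 adipocyte markers overlapped, at 60.1 to 117 CPM in NSD2fl/fl and 91.7 to 164 CPM in NSD2∆IE. The threshold of the study was passed as higher by 9 smooth muscle, 10 neuron and glia, 3 adipocyte and 3 fibroblast markers, against 8.05% of all genes. Of the 7 fibroblast markers, 4 had a log2 fold change above 0 and 3 below. All 8 B and plasma cell markers tested lay below 0 (median -0.75). Among T cell markers 6 lay above 0 and 2 below, and among macrophage markers 5 above and 4 below. None of these 3 immune lists held a marker past the threshold. The part of tissue composition in the values of the ribosomal protein genes was not tested. In bulk tissue, fewer cells of a type and less RNA per cell cannot be told apart.

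The level of each gene per length was read from the deposited FPKM (counts scaled by the length of the gene model and by the library total). Members held 39 of the 100 highest mean FPKM values in the tables, and the median member stood at 712 FPKM against 4.62 FPKM over all genes tested. In the large subunit, Rpl41, which encodes the shortest ribosomal protein, was highest. Its FPKM was 2659, 3385 and 3635 in NSD2fl/fl and 3130, 3391 and 3751 in NSD2∆IE, and it was the highest member in all 6 libraries. Rplp1 followed with 2114 ± 184 FPKM and Rpl26 with 1705 ± 148 FPKM (SD, n = 6 libraries). The lowest were Rpl21 at 106 ± 11, Rpl22 at 171 ± 21.4 and Rpl36 at 192 ± 24.6 FPKM. The ranges of Rpl21 and Rpl22 over the libraries did not overlap, with at most 122 and at least 142 FPKM, whereas those of Rpl22 and Rpl36 did.

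In the small subunit, Rps14, whose protein sits on the platform of the small subunit, stood highest at 2100 ± 188 FPKM. Rps18 was also high, at 1314 ± 136 FPKM. The lowest were Rps15a at 86 ± 8.2, Rps20 at 130 ± 11.9 and Rps21 at 312 ± 42.7 FPKM. The ranges of Rps15a and Rps20 over the libraries did not overlap, with at most 99.4 and at least 112 FPKM. The gene length implied by count and FPKM was 5136 bases for Rps15a and 3446 bases for Rps20, against a median of 789 bases over the members, and FPKM divides by that length. The same holds for Rpl22, with 2343 bases, and Rpl21, with 1856. The third quartile of FPKM was 2.45-fold the first in the large and 2.71-fold in the small subunit. The order of the 75 genes by FPKM was nearly the same in every library, with a Spearman rho across genes between 0.979 and 0.996 over the 15 library pairs, where genes are not independent replicates and share one set of gene lengths.

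**Figure D1:**
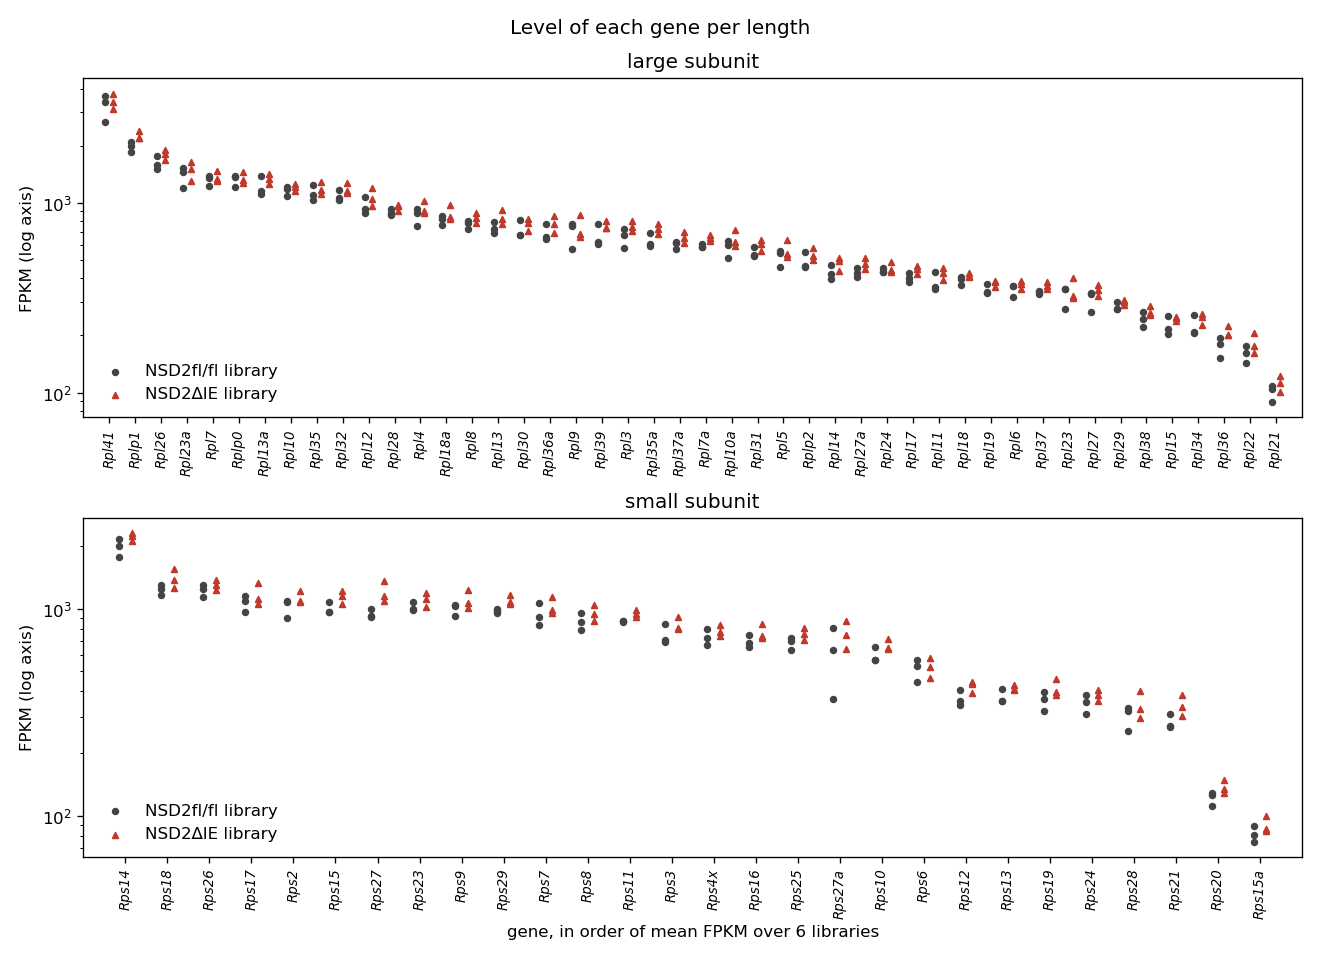
FPKM (log axis) of each ribosomal protein gene, in order of its mean over 6 libraries, with the large subunit above and all but 1 gene of the small subunit below. Circles are the 3 NSD2fl/fl and triangles the 3 NSD2∆IE libraries. Most genes lie within a narrow band of libraries, Rpl41 and Rps14 lead their subunits, and Rps27a has 1 circle far below the rest.

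The summed level of each subunit was then compared between libraries. The 46 large subunit genes summed to 28160, 29167 and 32749 CPM in NSD2fl/fl replicates 1 to 3 and to 32185, 28597 and 28681 CPM in NSD2∆IE replicates 1 to 3. The means were 30025 ± 2412 and 29821 ± 2048 CPM (SD, n = 3 per group). The 29 small subunit genes summed to 16423, 17573 and 19759 CPM in NSD2fl/fl and to 19959, 17293 and 17411 CPM in NSD2∆IE, with means of 17918 ± 1695 and 18221 ± 1507 CPM. In both subunits the groups overlapped and the difference between them was smaller than the spread within either. The high libraries were the same for both, NSD2fl/fl replicate 3 and NSD2∆IE replicate 1. Of the 75 members, 37 were highest in NSD2∆IE replicate 1, 35 in NSD2fl/fl replicate 3 and 3 in NSD2fl/fl replicate 2, and 42 were lowest in NSD2fl/fl replicate 1. The summed level of 9 proliferation markers was also highest in NSD2fl/fl replicate 3 (897 CPM), but it was 426 CPM in NSD2∆IE replicate 1 and 407 CPM in NSD2fl/fl replicate 1, the lowest of the 6. The part of cell division in the summed level was not tested.

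As a share of all counts, the members took 4.51%, 4.32% and 4.91% in NSD2fl/fl and 5.36%, 4.71% and 4.98% in NSD2∆IE, groups that again overlapped. The counts of the large subunit were 1.71, 1.66 and 1.66 times those of the small subunit in NSD2fl/fl and 1.61, 1.65 and 1.65 times in NSD2∆IE. Unrounded, the ratio did not overlap between the groups, although the nearest values of the 2 groups, 1.657 and 1.654, lay close to each other. Leaving out Rps27a gave ratios of 1.75, 1.71 and 1.72 for NSD2fl/fl, and of 1.67, 1.7 and 1.7 for NSD2∆IE. These did not overlap either, with nearest values of 1.715 and 1.704. Per length, the median FPKM of the large subunit was 0.757, 0.81 and 0.722 times that of the small subunit in NSD2fl/fl. It was 0.776, 0.799 and 0.829 times in NSD2∆IE, so that the groups overlapped. The ratio of counts was noticed after its values were seen and is given without a test.

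**Figure D2:**
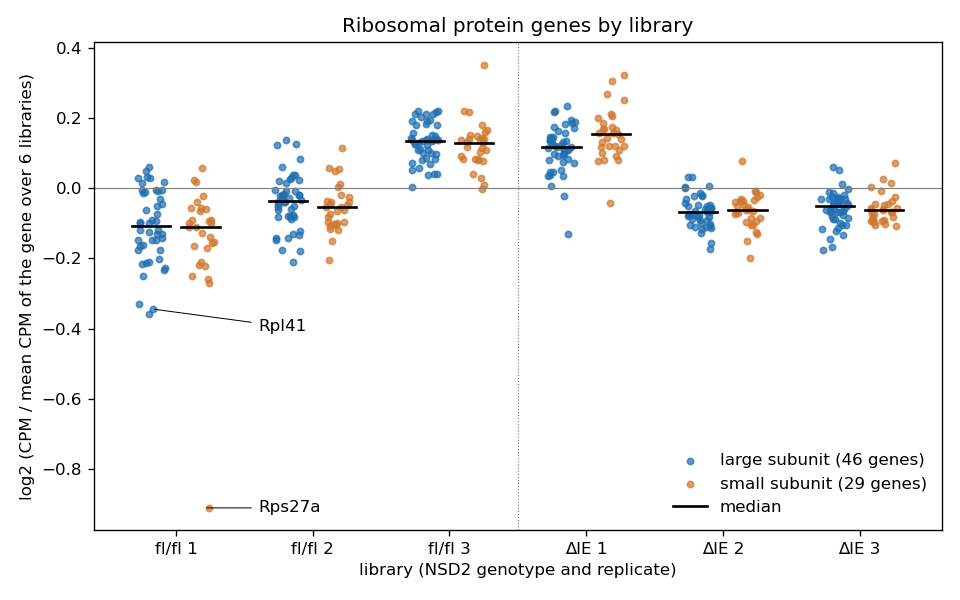
Each point is a ribosomal protein gene in a library, as log2 of its CPM over its own mean across the 6 libraries, with the large subunit at the left and the small subunit at the right of each library and a bar at the median. Nearly all genes of both subunits stand above their mean in NSD2fl/fl replicate 3 and NSD2∆IE replicate 1, with Rpl41, Rps2 and Rpl7a below it in the latter, and most stand below it in the other 4, and Rps27a lies far below the others in NSD2fl/fl replicate 1.

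Individual members were next compared between the genotypes. None of the 75 passed the test in either direction. With edgeR's quasi-likelihood test, 0 members had an adjusted p under 0.05 (0.0306% of all genes tested did), 0 had an unadjusted p under 0.05 (11.1% of all genes), and 0 passed the threshold of the study, either as higher in NSD2∆IE (8.05% of all genes) or as lower (2.21%). DESeq2 called 455 genes at an adjusted p under 0.05, with 0 members and 0 members at an unadjusted p under 0.05. The 3 values of each group overlapped for every member, while 11.4% of all genes had groups that did not overlap with NSD2∆IE higher and 7.28% with NSD2∆IE lower. The median log2 fold change was 0.011 over the members and -0.041 over all genes tested. The change was under 1.1-fold in 72 of the 75. The median SE was 0.15 on the log2 scale, and the 95% interval of the fold change lay within 1.5-fold either way for 73 members. It lay within the fold change of the study's threshold for 5, so that a change of that size in a single gene could not be told from none for the other members.

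In the large subunit, 23 genes had a log2 fold change above 0 and 23 below, with a median of -0.003. The smallest p belonged to Rpl36, with 117, 153 and 161 CPM in NSD2fl/fl and 171, 154 and 146 CPM in NSD2∆IE (log2 fold change 0.13, SE 0.152, adjusted p = 0.784 in edgeR). Only NSD2fl/fl replicate 1 lay apart from the other 5 libraries, and without it the log2 fold change was -0.0031. Rpl24, a late-joining protein of the large subunit, had 289, 317 and 331 CPM in NSD2fl/fl and 322, 285 and 279 CPM in NSD2∆IE (-0.08, SE 0.126). Rpl35a, whose annotated start holds the 8-base run shown above, had 350, 391 and 444 CPM in NSD2fl/fl and 448, 400 and 403 CPM in NSD2∆IE (0.08, SE 0.143). Rpl10, an X-linked gene whose protein joins the large subunit last, had 952, 939 and 1009 CPM in NSD2fl/fl and 973, 893 and 887 CPM in NSD2∆IE (-0.07, SE 0.143). All of these differences were smaller than their standard errors.

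The stalk of the large subunit, which recruits the elongation factors, is built on Rplp0 and carries pairs of Rplp1 and Rplp2. Rplp0 had 1854, 1792 and 1992 CPM in NSD2fl/fl and 1912, 1688 and 1657 CPM in NSD2∆IE, and its log2 fold change of -0.10 (SE 0.168) was the lowest of all members. Rplp1 had a log2 fold change of 0.06 (970 ± 102 against 1009 ± 69.9 CPM; SD, n = 3 per group), and Rplp2 one of -0.0081 (236 ± 30.6 against 234 ± 20.5 CPM). Per length, Rplp1 stood at 2114 FPKM, Rplp0 at 1334 ± 81.9 and Rplp2 at 514 ± 47.3 FPKM (SD, n = 6 libraries), in that order in every library. Rpl5 and Rpl11, which bind MDM2, the ligase for p53, when ribosome assembly fails, had log2 fold changes of -0.0066 (1099 ± 102 against 1094 ± 132 CPM) and 0.02 (635 ± 90.4 against 645 ± 50.2 CPM).

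In the small subunit, 23 genes had a log2 fold change above 0 and 6 below, with a median of 0.018. Rps27, a zinc-binding protein of the small subunit, had the smallest p of all members. It had 310, 343 and 369 CPM in NSD2fl/fl and 456, 390 and 348 CPM in NSD2∆IE, so that 2 of the 3 NSD2∆IE values lay above all NSD2fl/fl values and the third lay among them. The log2 fold change was 0.22 (SE 0.152, 95% interval -0.14 to 0.59, unadjusted p = 0.185 and adjusted p = 0.634 in edgeR), and it was 0.12 without NSD2∆IE replicate 1, the highest library. Rps21, whose annotated start holds a 5-base run, had 151, 163 and 187 CPM in NSD2fl/fl and 209, 167 and 176 CPM in NSD2∆IE (0.14, SE 0.141). Its log2 fold change was 0.044 when NSD2∆IE replicate 1 was left out, 0.067 when NSD2fl/fl replicate 1 was, and 0.231 when NSD2fl/fl replicate 3 was. Rps6, the target of the S6 kinases downstream of mTOR, had 729, 668 and 839 CPM in NSD2fl/fl and 783, 629 and 677 CPM in NSD2∆IE (-0.10, SE 0.165). Rps19, which is required for the maturation of the small subunit RNA, had 325, 314 and 381 CPM in NSD2fl/fl and 402, 337 and 331 CPM in NSD2∆IE (0.07, SE 0.146).

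The 4 X-linked members were of interest because the sex-linked genes differed between the groups. Their log2 fold changes were -0.07 for Rpl10, 0.05 for Rpl39 (304 ± 50.6 against 315 ± 23 CPM), 0.03 for Rpl36a (354 ± 46.2 against 362 ± 37.2 CPM) and -0.02 for Rps4x (1038 ± 41.4 against 1022 ± 71.3 CPM; SD, n = 3 per group). For each of the 4, the values of the genotypes overlapped.

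**Figure D3:**
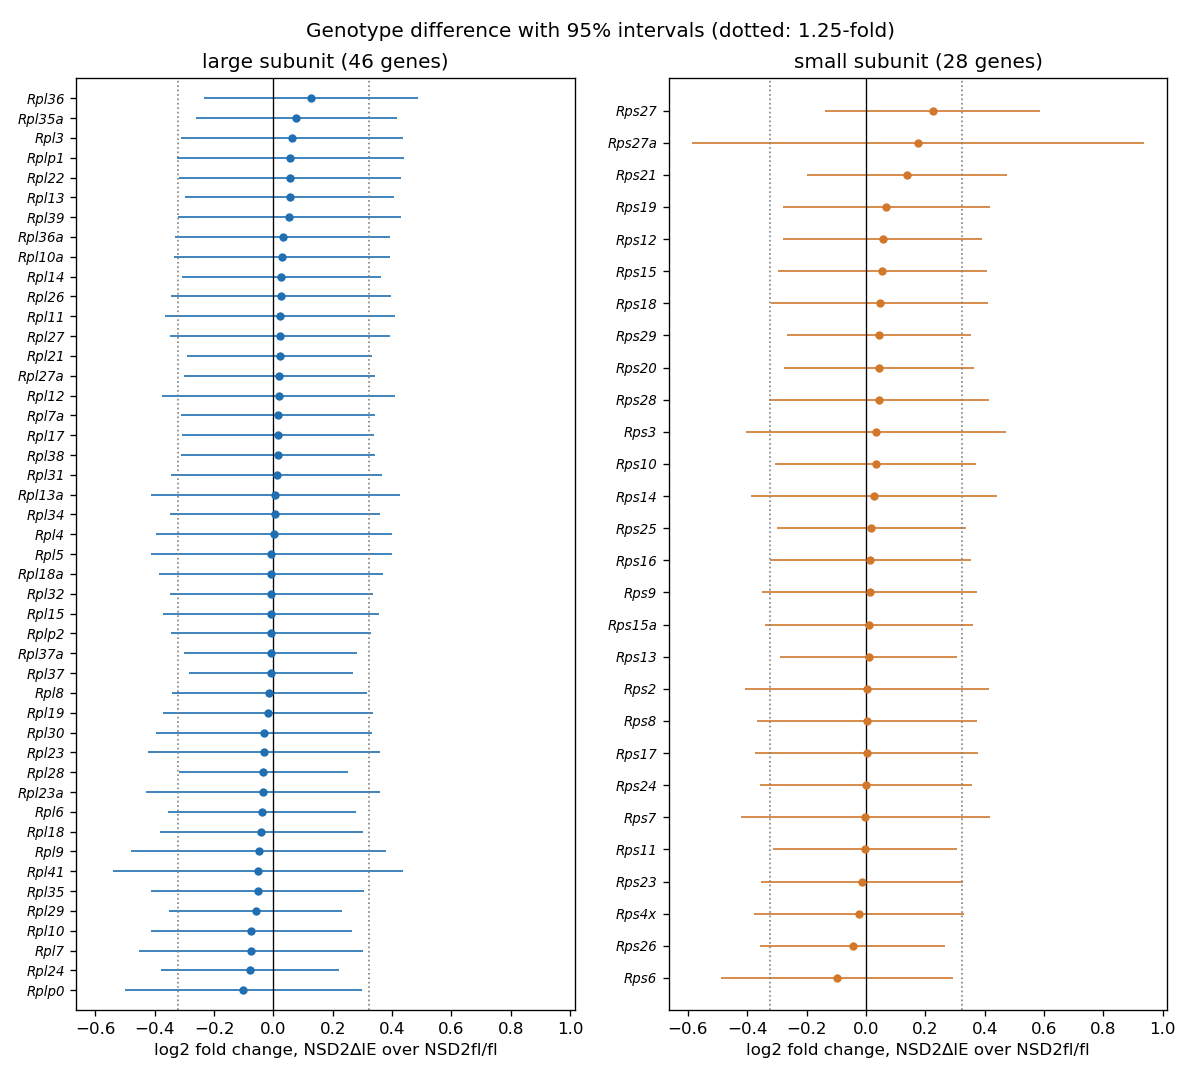
Log2 fold change of NSD2∆IE over NSD2fl/fl for each member, with its 95% interval from edgeR's quasi-likelihood test, with 46 large subunit genes at the left and all but 1 of the small subunit genes at the right. Dotted lines mark the fold change of the study's threshold. Every interval shown crosses 0, and that of Rps27a is the widest.

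Because most members were high or low in the same libraries, each gene was also set against the pool, as a percentage of the counts of all 75. Across the 6 libraries, the coefficient of variation had a median of 8.65% for the CPM of the members (19.2% over all genes tested) and of 4.16% for the share of the pool. The members and all genes were not matched for level, with medians of 712 and 4.62 FPKM. A share leaves out what the members have in common, and its variation over all genes is not given here. Rpl27a kept the most even share, between 1.03% and 1.06% of the pool in every library. Rpl32 lay between 1.17% and 1.21%. In all, 48 members had a coefficient of variation of the share under 5%, and 8 had one over 8%.

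The least even share was that of Rps27a, the gene for a ubiquitin fused to a small subunit protein. It had 11388, 19853 and 25266 counts in NSD2fl/fl and 27535, 20141 and 23474 counts in NSD2∆IE, which are 0.663%, 1.2% and 1.35% of the pool and 1.33%, 1.11% and 1.23% of the pool. NSD2fl/fl replicate 1 thus stood at 0.546 times the gene's own median share, while the other 5 libraries lay near each other. Its log2 fold change of 0.18 (SE 0.321, adjusted p = 0.859 in edgeR) became -0.11 without that library. Fau, which fuses a ubiquitin-like protein to a small subunit protein, had 322, 427 and 367 CPM in NSD2fl/fl and 402, 399 and 363 CPM in NSD2∆IE. It was lowest in NSD2fl/fl replicate 1 too, by a smaller margin.

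Rpl41 was the next least even, with 2.65%, 3.52% and 3.32% of the pool in NSD2fl/fl and 2.62%, 3.23% and 3.38% in NSD2∆IE. Here replicate 1 of each genotype was low. Over all members, NSD2fl/fl replicate 1 was the library farthest from the gene's own median share for 34 of 75, and 16 members were off their median by over 10% in it, against 0 to 6 members in each other library.

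Relative to the pool, 0 members had an unadjusted p under 0.05 in edgeR with the library sizes set to the pool, and the smallest p was 0.142 for Rps27. Its share was 0.696%, 0.735% and 0.702% in NSD2fl/fl and 0.875%, 0.849% and 0.756% in NSD2∆IE, groups that did not overlap. The shares of 6 members did not overlap with NSD2∆IE higher, among them Rps27, Rps21, Rps15, Rpl13 and Rpl35a, against 7.7% of all genes taken relative to the pool. The shares of 3 did not overlap with NSD2∆IE lower, which were Rplp0, Rpl7 and Rpl24, against 6.7% of all genes. The first count was close to its background, and the second was below it. Rplp0 took 4.16%, 3.83% and 3.79% of the pool in NSD2fl/fl and 3.67%, 3.68% and 3.59% in NSD2∆IE. Rps15, Rpl13 and Rpl7, like Rpl27a, Rpl32 and Rpl41, are named here for their shares, which were seen first.

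**Figure D4:**
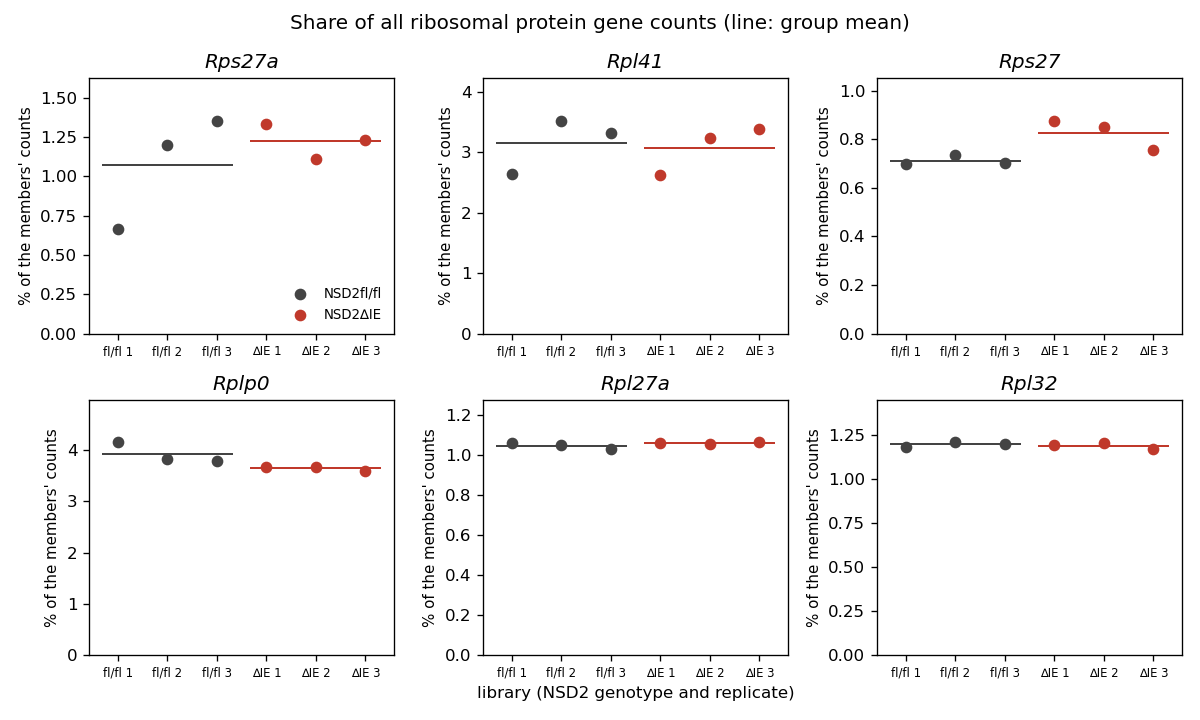
Percentage of the counts of all 75 members taken by 6 genes in each library, on axes that start at 0, with NSD2fl/fl in grey, NSD2∆IE in red and a line at each group mean. Rps27a is low in 1 NSD2fl/fl library and Rpl41 in replicate 1 of each genotype, the groups of Rps27 and Rplp0 do not overlap, and Rpl27a and Rpl32 are nearly level.

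Other proteins of the cytosolic ribosome have symbols outside the pattern. All 5 that were tested lay near 0. Among them, the log2 fold changes were 0.02 for Rpsa, the laminin receptor protein of the small subunit, -0.02 for Rps3a1, 0.03 for Rack1, a scaffold for signalling proteins on the small subunit, and 0.06 for Fau, and 0 of the 5 had an unadjusted p under 0.05. Of the paralogs, which replace or resemble a member in some tissues, 5 were tested and 0 passed that threshold with TMM factors and all libraries. Without NSD2fl/fl replicate 1, all 5 lay below 0 and 1 passed it, Rpl36al at -0.36 (unadjusted p = 0.02 in edgeR). Without NSD2fl/fl replicate 3, 3 lay above 0 and 2 below. The share of all genes in these other fits is not given here. The values that follow are from TMM factors and all libraries. Rpl36al had a log2 fold change of -0.20 (138 ± 29.7 against 120 ± 5.8 CPM; SD, n = 3 per group), Rps27l one of -0.14 (149 ± 36.5 against 135 ± 4.62 CPM), Rps27rt one of -0.13 (19.3 ± 1.62 against 17.6 ± 1.03 CPM), Rpl7l1 one of -0.12 (97.7 ± 20.9 against 89.8 ± 2.27 CPM) and Rpl22l1 one of 0.10 (82.8 ± 28 against 88.4 ± 18.5 CPM). Rpl3l and Rpl39l, known from muscle and testis, had no more than 5 and 4 counts in any library and were too low to test.

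The ribosomal protein genes have many near-identical copies in the genome, and reads that fit several places could be split between them. Of the rows named for a copy or paralog of a member, 18 were counted here, leaving out Rpl7l1 and Rpl22l1, whose levels are given above. Of the 18, 6 had a mean of 100 counts or more. Among these, Rpl37rt had 2992 counts on average, 25.6% of the mean of Rpl37, Rpl34-ps1 had 1177 (10.7% of Rpl34) and Rpl6l had 1374 (6.33% of Rpl6). How reads were split between these rows and the members was not measured, so the values of members with such copies are uncertain.

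Related gene groups were described in the same fit. Over all 16347 genes tested, 7145 had a log2 fold change above 0 and 9202 below, with a median of -0.041. With library totals alone the median of all genes was 0.086. The counts above and below 0 in the groups that follow are to be read beside these. Among 26 genes for elongation factors and other messages of the 5′ TOP class, 5 had a log2 fold change above 0 and 21 below, with a median of -0.04, whereas with library totals alone 17 were above and 9 below. With TMM factors and all libraries none had an unadjusted p under 0.05, and 1 did without NSD2fl/fl replicate 3. The smallest p values were those of Pabpc1, the poly(A)-binding protein, at -0.17 (658 ± 38.8 against 585 ± 27.2 CPM), and of Cct4, a chaperonin subunit, at -0.14 (215 ± 19.1 against 195 ± 10.8 CPM; SD, n = 3 per group).

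The 64 genes of ribosome biogenesis, which make and process ribosomal RNA and assemble the subunits in the nucleolus, lay mostly below 0, with 5 above and 59 below and a median of -0.17, but with library totals alone 26 were above and 38 below, and without NSD2fl/fl replicate 3 the direction turned, with 39 above, 25 below and a median of 0.056. With TMM factors and all libraries, 0 passed an unadjusted p under 0.05, against 11.1% of all genes tested. Without NSD2fl/fl replicate 1, 8 of the 64 did (median -0.271), as did 3 without NSD2fl/fl replicate 2 and 2 without NSD2∆IE replicate 1. So did 3 with library sizes set to the pool of ribosomal protein counts, 3 with the replicate block, 2 with no filter and 1 with library totals alone or FPKM. The share of all genes in these other fits is not given here, so these counts are not read as a result about the list. Noc4l, a nucleolar factor for assembly of the small subunit, had 16.3, 23.3 and 28.2 CPM in NSD2fl/fl and 17, 14.7 and 17.2 CPM in NSD2∆IE (log2 fold change -0.47, SE 0.212, unadjusted p = 0.0637 and adjusted p = 0.478 in edgeR). It was at -0.66 without NSD2fl/fl replicate 1 (unadjusted p = 0.00462 in edgeR), at -0.27 without NSD2fl/fl replicate 3 and at -0.46 relative to the pool (unadjusted p = 0.0418 in edgeR). Mdn1, the motor protein that strips factors from the maturing large subunit, was at -0.43 (SE 0.199, 43.4 ± 8.16 against 32.3 ± 6.83 CPM), at -0.59 without NSD2∆IE replicate 1 (unadjusted p = 0.021 in edgeR), at -0.26 without NSD2fl/fl replicate 3 and at -0.43 relative to the pool (unadjusted p = 0.0255 in edgeR). Their summed level was 2732, 2945 and 3861 CPM in NSD2fl/fl and 3119, 2547 and 2734 CPM in NSD2∆IE. It was highest in NSD2fl/fl replicate 3 and next in NSD2∆IE replicate 1, the same 2 libraries in which the ribosomal protein genes stood high.

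Of 25 genes that control ribosomal protein synthesis, mostly of the mTOR pathway, 3 were above 0 and 22 below, with a median of -0.10 and 0 at an unadjusted p under 0.05, and with library totals alone 16 were above and 9 below. An unadjusted p under 0.05 was reached by 2 without NSD2∆IE replicate 1 and by 1 with library totals alone or FPKM. Tsc1, an inhibitor of mTOR, had 52.8, 42.2 and 39.4 CPM in NSD2fl/fl and 39.36, 34.2 and 38.3 CPM in NSD2∆IE (-0.26, SE 0.14). Larp1, the protein that binds the 5′ TOP start, had 199, 189 and 212 CPM in NSD2fl/fl and 184, 164 and 176 CPM in NSD2∆IE (-0.20, SE 0.111). The groups did not overlap for 3 of the 25, Tsc1, Larp1 and Rps6kb1, all lower in NSD2∆IE, beside 7.28% of all genes in that direction. For Tsc1 the nearest values were almost equal, and its log2 fold change was -0.13 when NSD2fl/fl replicate 1 was left out. Among 78 mitochondrial ribosomal proteins, which belong to the separate ribosome of that organelle, 16 were above 0 and 62 below, with a median of -0.05. Library totals alone turned this to 59 above and 19 below, and leaving out NSD2fl/fl replicate 3 to 52 and 26. Leaving out NSD2fl/fl replicate 1 gave 5 above and 73 below, with a median of -0.154, against -0.039 over all genes. In that fit 6 of the 78 had an unadjusted p under 0.05. With TMM factors and all libraries 0 did, against 11.1% of all genes, and in any other fit at most 2 of the 78 did. The share of all genes in these other fits is not given here. Mrpl23 was at 0.22 (26.1 ± 2.32 against 30.3 ± 1.73 CPM, unadjusted p = 0.105 in edgeR) and Mrpl37 at -0.18 (48.1 ± 2.95 against 42.3 ± 2.15 CPM). Mrpl23 passed the threshold of the study with library totals alone (0.345, unadjusted p = 0.0228 in edgeR) and on both FPKM scales (0.325 and 0.343). With upper-quartile factors Mrpl23 was at 0.285 (unadjusted p = 0.0451 in edgeR). Mrpl37 was at -0.055 with library totals alone.

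The direction of a shift of this size depended on the scaling of the libraries. With TMM factors, 46 of the 75 members had a log2 fold change above 0, with upper-quartile factors 70, and with library totals alone or with FPKM all 75. Library totals alone moved the median of all genes from -0.041 to 0.086 and that of the members from 0.011 to 0.139, so that the members stood 0.05 above all genes in both. With library totals alone, Rps27 had an unadjusted p of 0.0339 (adjusted p = 0.371) in edgeR and was the only member to pass the threshold of the study. The share of all genes that passed in that fit is not given here, so this count is not read as a result about the members. Leaving out a single library gave 13 members above 0 when NSD2fl/fl replicate 1 was dropped, 14 when NSD2∆IE replicate 1 was, and up to 66 when NSD2fl/fl replicate 3 was. The members' median did not stay above that of all genes. It was -0.042 against -0.039 without NSD2fl/fl replicate 1 and -0.046 against -0.035 without NSD2∆IE replicate 1. Without any other library it lay above, most so without NSD2fl/fl replicate 3 (0.09 against -0.013).

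**Figure D5:**
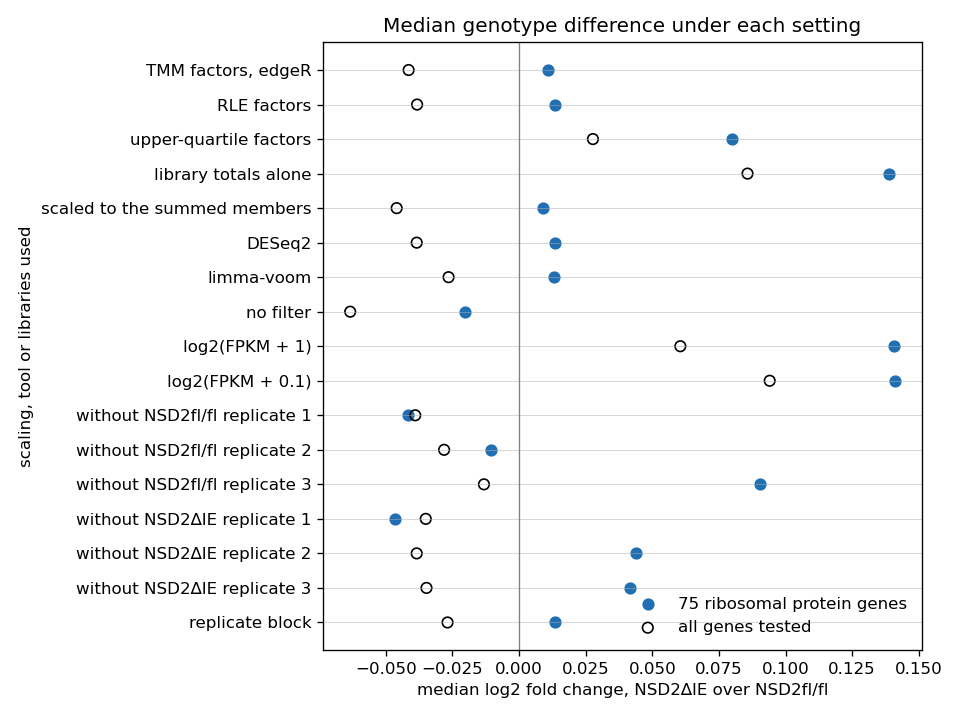
Median log2 fold change of NSD2∆IE over NSD2fl/fl for the 75 members (filled) and for all genes tested (open) under each scaling, tool and set of libraries. The members' median lies between -0.046 and 0.141, at 0.011 with TMM factors and all libraries, and highest with FPKM and with library totals alone.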

How the data were processed

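Gene expression was measured by RNA-seq in 6 colon libraries. The authors deposited for each library the reads counted on every gene symbol, as whole-number counts, and an FPKM value, which scales the same counts. The submitters' processing notes name fastp, HISAT2, HTSeq, R 3.2.0 and mm10. Versions of the other tools, the annotation and the use of strand are not given in the sources used here. The RefSeq tables are of GRCm38.p6, the assembly that mm10 denotes, and all 75 members were found in its gene table. FPKM was used for levels between genes, and counts for all tests.

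Genotypes were compared with the quasi-likelihood test of edgeR 4.0.16 under R 4.3.3 (two-sided, no covariates) after filterByExpr and TMM scaling, with Benjamini-Hochberg adjustment over all 16347 genes. Standard errors were obtained from the log2 fold change and its F statistic. Alternatives were RLE and upper-quartile factors, library totals, library sizes set to the members' counts, DESeq2 1.42.0, limma-voom (limma 3.58.1), no filter, limma on log2(FPKM + 1) and log2(FPKM + 0.1), leaving out each library, and a replicate block. The script was tested on simulated data. The members, gene lists, named-gene rule and tests were chosen with earlier results of these data known, so no p adjusted over a list and no set test is given. The named genes were, in each subunit, the 5 with the smallest p and the 3 highest and 3 lowest by FPKM, then genes by role, the X-linked members, the tested paralogs and, from each other list, the 2 with the smallest p where none passed the threshold of the study. Libraries were compared pairwise, and no pair agreed within sampling noise (chi-square per degree of freedom at least 35.46). Totals of 38041832 to 38604680 counts make counting error small for the members, whose lowest mean count was 4890. Where samples of a group are not stated to be separate animals, p-values measure the spread between these samples. Elf3, Rps6kb1, Rpl7a and Rps2 were named after their values were seen, as the report says of others. The values of 2 genes that the rule names are not reported here, although counts over all genes include them.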

Additional observations from a re-analysis of the deposited data

How the results depend on the processing

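No member passed an adjusted p under 0.05 under any of the alternatives run, and only library totals alone gave 1 member with an unadjusted p under 0.05, the same 1 that passed the threshold of the study as higher. The share of all genes called in that fit is not given here. Members above 0 numbered 70 with upper-quartile factors, 21 with no filter on low counts and 75 with library totals alone, log2(FPKM + 1) and log2(FPKM + 0.1), and 13 to 66 when a library was left out. With the replicate block, 46 members were above 0 and 0 had an unadjusted p under 0.05. The replicate numbers were not shown to pair the libraries, since the deviations of same-numbered libraries correlated at 0.501, 0.643 and -0.166. The best partner in NSD2∆IE was the same-numbered library for NSD2fl/fl replicates 1 and 2, but replicate 1 for replicate 3. The pair with the lowest chi-square per degree of freedom, 35.46, was replicate 1 of each genotype. A structure shared by some replicate numbers was not tested. The median log2 fold change of the large subunit was 0.125 with library totals alone and 0.129 with both FPKM scales, and that of the small subunit was 0.146 with all 3. The summed levels of the large and small subunits differed by 0.119 and 0.153 on the log2 scale with library totals alone.

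Signs turned for genes near 0. With upper-quartile factors, the log2 fold changes were 0.0608 for Rplp2, 0.0609 for Rpl5, 0.045 for Rps4x and 0.048 for Rps3a1. With library totals alone, log2(FPKM + 1) and log2(FPKM + 0.1), they were, in that order, 0.0489, 0.0472 and 0.0473 for Rpl24, 0.0249, 0.025 and 0.025 for Rplp0, 0.052, 0.0524 and 0.0525 for Rpl10, 0.122, 0.124 and 0.124 for Rplp2, 0.118, 0.118 and 0.118 for Rpl5, 0.0281, 0.0293 and 0.0294 for Rps6, 0.101, 0.103 and 0.103 for Rps4x, 0.105, 0.103 and 0.103 for Rps3a1 and 0.0122, 0.026 and 0.027 for Rpl7l1. Rps27l was at 0.0113 and 0.0118 on the 2 FPKM scales. With no filter, Rpl11 was at -0.0091, Rpl36a at -0.000613 and Rpsa at -0.0143.

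With 1 library left out, the log2 fold change ranged from 0.123 to 0.312 for Rps27, 0.0437 to 0.231 for Rps21, -0.0031 to 0.224 for Rpl36, -0.00495 to 0.174 for Rpl35a, -0.0289 to 0.122 for Rplp1, -0.093 to 0.101 for Rplp2, -0.103 to 0.0674 for Rpl5, -0.0721 to 0.141 for Rpl11, -0.0487 to 0.197 for Rpl39, -0.0464 to 0.144 for Rpl36a, -0.11 to 0.471 for Rps27a, -0.018 to 0.162 for Rps19, -0.0757 to 0.00762 for Rps4x, -0.0429 to 0.103 for Rpsa, -0.136 to 0.0512 for Rps3a1, -0.0191 to 0.0841 for Rack1, -0.0352 to 0.173 for Fau, -0.315 to 0.0496 for Rps27l, -0.245 to 0.0669 for Rpl7l1 and -0.119 to 0.386 for Rpl22l1. The cause of these changes was not tested. With 3 libraries a group, the spread between libraries, not the depth, limited what could be detected.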
